A study of Mus musculus with 7 samples.

Results

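Xenobiotic and detoxification enzymes are the cytochrome P450s, transferases, dehydrogenases and hydrolases that make foreign and reactive molecules easier to excrete. Members were the mouse genes whose symbols start with Cyp1 to Cyp4 and a subfamily letter, Gsta, Gstm, Gstp, Gstt, Gsto or Gstz, Mgst, Aldh, Ephx, Ugt1, Nqo or Sult, and that had a count above 0 in at least 3 of the 7 libraries. Of 27179 genes in the count table, 166 symbols matched and 75 of these were members. They comprised 24 cytochrome P450s, 18 cytosolic glutathione S-transferases, 18 aldehyde dehydrogenases, 4 UDP-glucuronosyltransferases of the Ugt1 locus, 4 cytosolic sulfotransferases, 3 membrane-bound glutathione transferases (Mgst), 2 epoxide hydrolases and 2 quinone reductases (Nqo). Among the members, Cyp4f41-ps and Gstp-ps carry the suffix of a pseudogene and are counted here with the enzymes. The rule counted libraries without regard to genotype, but Cyp2j9 met it through the 3 Suz12 cKO libraries alone. Of the 91 matching genes left out, 71 had no count in any library. The 5 members detected in exactly 3 libraries (Aldh3a1, Cyp2a4, Cyp2b10, Cyp2j9 and Cyp4b1) had highest counts between 29 and 129 in a library, and the 9 genes detected in 2 libraries, among them Cyp1a1 and Aldh1a3, reached at most 39 counts.

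The RNA came from alveolar macrophages, the phagocytes of the air spaces, isolated by flow cytometry from the lungs of bone marrow chimeras. All recipients were lethally irradiated C57BL/6-Ly5.1 mice that received 90% test marrow (Ly5.2) mixed with 10% wild type Ly5.1 marrow. In the 4 wild type libraries the test marrow was wild type, and in the 3 Suz12 cKO libraries it was Suz12 cKO, a conditional knockout of a core subunit of the polycomb repressive complex PRC2, which places a repressive histone methylation mark. The Cre driver, the deleted exons, the age and sex of the mice, and the gate applied to competitor or surviving host cells are not stated in the labels. The design text calls the libraries biological replicates.

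Phase I enzymes such as the P450s and aldehyde dehydrogenases oxidise a substrate, and epoxide hydrolases open reactive epoxides to diols. Phase II enzymes then attach glutathione, glucuronic acid or sulfate, and export pumps remove the conjugates. Many of these families also act on the cell's own lipids: P450s of the Cyp2j and Cyp4 families oxidise arachidonic acid and leukotrienes, and Aldh1a enzymes make retinoic acid. In lung much of the classical P450 activity is known from club cells of the airway, while alveolar macrophages handle inhaled particles, oxidants and surfactant lipid.

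Levels are CPM, counts scaled to a common library total, after TMM scaling, a correction for library composition. Genotypes were compared for 14436 genes with edgeR's quasi-likelihood test, and a gene was called at a Benjamini-Hochberg adjusted p under 0.05. Library totals ran from 48104653 to 79281431 counts. Suz12 itself stood at 22.1, 23.6 and 15.1 CPM in Suz12 cKO replicates 1 to 3 against 56.5, 56.3, 73.9 and 68.9 CPM in wild type replicates 1 to 4, lower by 1.65 on the log2 scale (SE 0.18, edgeR adjusted p = 0.00134). The 15 alveolar macrophage markers summed to 73762 to 77369 CPM in Suz12 cKO and 62072 to 77502 CPM in wild type libraries. Most of each sum was Lyz2 (mean 37582 and 39474 CPM) and Chil3 (19467 and 17223 CPM), which overlapped between genotypes. The sum therefore says little about the other markers. The edgeR test called 6 of the 15 higher and 0 lower. Fabp4 was called higher at 231 to 479 against 47.9 to 108 CPM. Marco was called higher at 11.2 to 22.5 against 1.53 to 6.24 CPM. Siglecf and Cd68 lay below wild type in each Suz12 cKO library without a call. Haemoglobin transcripts stood apart in Suz12 cKO replicate 1 (192 CPM), Suz12 cKO replicate 2 (155 CPM) and wild type replicate 2 (56.6 CPM), with 2.29 to 5.17 CPM elsewhere. The first 3 are referred to as high in tissue RNA, which here means haemoglobin above 20 CPM and nothing more. The labels name no such difference, and its source was not tested. Marker sums for fibroblasts, type 1 epithelium and lymphocytes were higher in each of these 3 libraries than in the other 4. Those for club, type 2, ciliated, neutrophil and endothelial cells were not. Fits to these 3 libraries or to the other 4 are given where they differ from the full fit. The 3 hold 2 Suz12 cKO libraries and 1 wild type library, and the other 4 hold 1 Suz12 cKO and 3 wild type libraries. In each such fit the lone library is assumed to vary like the rest, so its calls and lost calls say little about stability. In bulk RNA, fewer cells of a type and less RNA per cell cannot be told apart.

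Of the 75 enzymes, 71 passed the filter on low counts. The edgeR test called 9 of the 71 higher in Suz12 cKO (12.7%, against 6.28% of all genes tested) and 5 lower (7.04%, against 4.02%), and the other 57 were not called. The 9 include Cyp2j9, whose direction was fixed by how it became a member. They also include Cyp4a12a and Cyp4a12b, which passed the filter only through their Suz12 cKO libraries and could hardly have been called lower. The median log2 fold change was 0.14 over the 71 enzymes and 0.00 over all genes tested. For 16 of the 71 enzymes each Suz12 cKO library lay above each wild type library (14.1% of all genes tested did). For 8 of the 71 each lay below (11.5% of all genes tested). In either direction that was 24 of the 71, against 25.5% of all genes tested. The enzymes called higher were Ephx1, Aldh1a2, Aldh1l1, Sult4a1, Gstm5, Cyp2j6, Cyp2j9, Cyp4a12a and Cyp4a12b. Those called lower were Gsto1, Gstt2, Mgst3, Cyp2ab1 and Cyp4f18. The count called higher fell to 5 without Suz12 cKO replicate 1 or without replicate 2, and 7 of the 14 called enzymes (Ephx1, Aldh1a2, Aldh1l1, Sult4a1, Cyp4a12a, Mgst3 and Cyp2ab1) were called under each of the 14 alternative analyses.

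**Figure D1:**
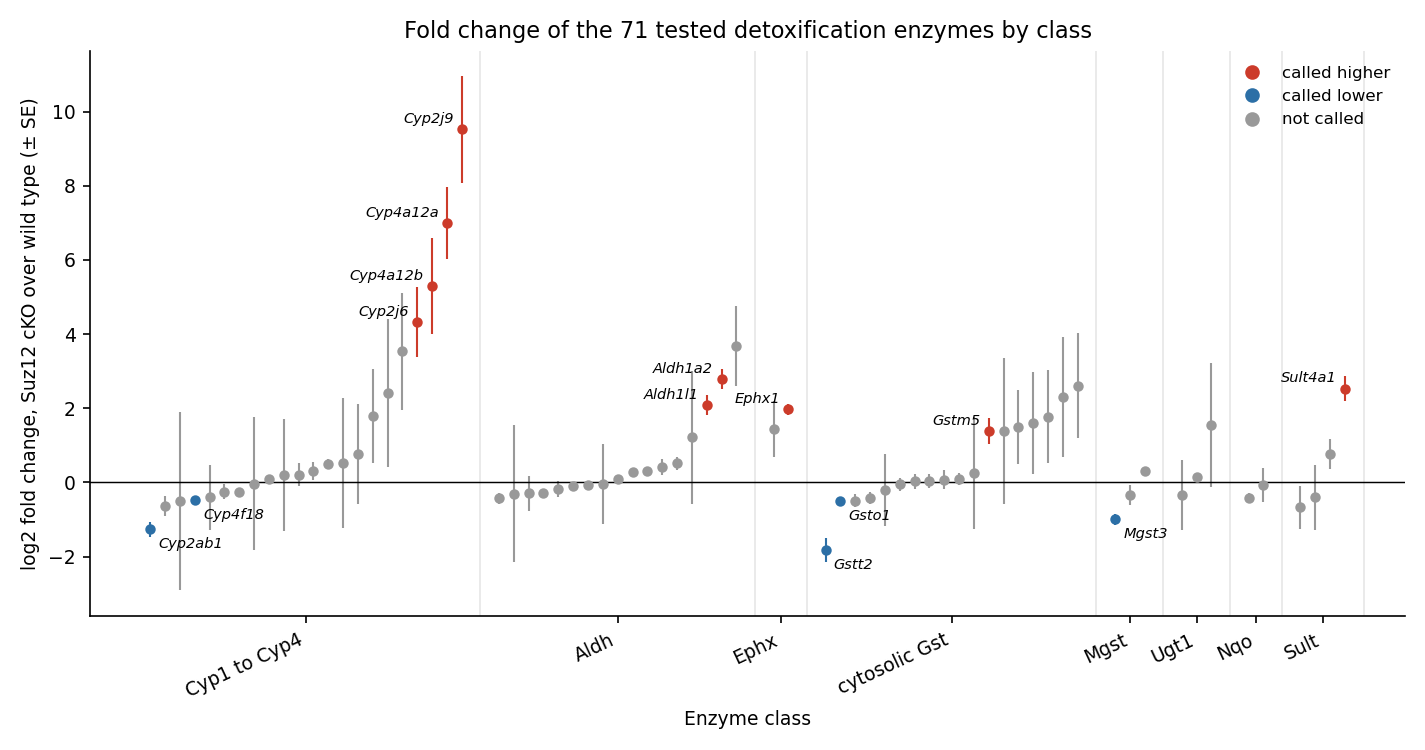
Log2 fold change of Suz12 cKO over wild type with its SE (vertical axis) for the 71 tested enzymes, grouped by enzyme class (horizontal axis); red points were called higher, blue points lower and grey points were not called. The 9 enzymes called higher lay at 1.38 or above and the 5 called lower at -0.48 or below, with most grey points closer to 0 or with wide errors.

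Promoters of 4 of the enzymes called higher are shown because they differ widely in CpG content. Of the 4, Cyp2j6 and Cyp2j9 are neighbouring genes. The direction of Cyp2j9 was fixed by how it became a member, so the pair is not evidence of a shared change. The sequences are RefSeq's, on GRCm38.p6 (the assembly named mm10), from 250 bases before to 50 bases after an annotated start, written 5′ to 3′ on the gene's strand, with each CpG in capitals. Ephx1 lies on the minus strand at chr1:181017520-181017819, Aldh1a2 on the plus strand at chr9:71215539-71215838, Cyp2j6 on the minus strand at chr4:96553602-96553901 and Cyp2j9 on the minus strand at chr4:96591436-96591735.
Ephx1: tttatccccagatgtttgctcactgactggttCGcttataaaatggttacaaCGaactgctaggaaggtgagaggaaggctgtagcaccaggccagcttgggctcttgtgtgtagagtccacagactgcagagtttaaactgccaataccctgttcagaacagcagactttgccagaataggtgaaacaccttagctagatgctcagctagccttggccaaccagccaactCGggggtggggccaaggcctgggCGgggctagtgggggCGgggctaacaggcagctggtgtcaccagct
Aldh1a2: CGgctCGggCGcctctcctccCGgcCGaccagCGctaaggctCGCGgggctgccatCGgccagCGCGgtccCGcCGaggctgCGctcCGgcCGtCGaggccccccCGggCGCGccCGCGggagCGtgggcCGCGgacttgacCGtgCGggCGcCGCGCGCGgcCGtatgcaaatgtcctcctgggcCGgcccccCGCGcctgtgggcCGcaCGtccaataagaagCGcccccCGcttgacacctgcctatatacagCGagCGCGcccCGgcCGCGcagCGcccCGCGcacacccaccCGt
Cyp2j6: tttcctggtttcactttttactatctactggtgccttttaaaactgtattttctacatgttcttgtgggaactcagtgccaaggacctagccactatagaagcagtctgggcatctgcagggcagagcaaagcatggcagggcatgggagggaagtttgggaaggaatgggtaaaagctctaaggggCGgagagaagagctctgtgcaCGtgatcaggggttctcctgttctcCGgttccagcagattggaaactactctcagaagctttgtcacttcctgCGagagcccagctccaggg
Cyp2j9: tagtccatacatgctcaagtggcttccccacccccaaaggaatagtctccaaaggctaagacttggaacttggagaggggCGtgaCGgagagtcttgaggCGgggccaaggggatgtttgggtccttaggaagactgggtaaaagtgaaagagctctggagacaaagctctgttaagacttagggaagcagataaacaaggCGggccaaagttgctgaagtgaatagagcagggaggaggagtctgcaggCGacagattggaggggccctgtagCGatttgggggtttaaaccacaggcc
The Aldh1a2 window holds 50 CpG dinucleotides, and 0.855% of all RefSeq promoters hold as many. The Ephx1 window holds 5, and 43.6% of all promoters hold that number or fewer. The Cyp2j6 and Cyp2j9 windows hold 4 and 6, against a median of 7 over 32851 promoters of the same length. Both windows lie inside the annotated gene spans, which reach 96564305 and 96592523, so a start further upstream was not examined. These windows were also searched on both strands for GCGTG, the core motif of the aryl hydrocarbon receptor, and TGACNNNGC, the core of the antioxidant response element. Aldh1a2 had 1 match to each, Cyp2j6 had 1 match to TGACNNNGC, Cyp2j9 had 1 match to GCGTG, and neither string was found in the Ephx1 window. Among the 72 promoters of the 58 members that matched the RefSeq table, 33.3% held GCGTG and 12.5% held TGACNNNGC, against 32.4% and 12.4% of all promoters. A match describes the letters of the window and not a bound site.

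In wild type macrophages the enzymes differed widely in abundance. Levels between genes are given as CPM per kilobase of the deposited gene length. Mgst1, a membrane-bound glutathione transferase, was the most abundant member at 417 ± 49.8 CPM per kilobase (SD, n = 4), followed by Gsto1 at 181 ± 4.72 and Mgst3 at 179 ± 16.5, which did not differ beyond their spread. The mu-class transferase Gstm1 (100 ± 17.7) and the mitochondrial aldehyde dehydrogenase Aldh2 (95.1 ± 4.82) came next and overlapped. Across the 7 libraries 43 of the 75 enzymes averaged above 1 CPM in both genotypes, so many members were rare transcripts in these cells.

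Summed by class, the Mgst genes made up 36.3% of the wild type level of all 75 enzymes, cytosolic glutathione transferases 24.4%, aldehyde dehydrogenases 21.2% and P450s 13.7%. The epoxide hydrolases made up 1.88% in wild type and 7.02% in Suz12 cKO. Their sum was 125 ± 8.47 CPM per kilobase in Suz12 cKO (SD, n = 3) and 31.8 ± 6.51 in wild type (SD, n = 4). The aldehyde dehydrogenase sum was also higher in each Suz12 cKO library, at 407 ± 23.0 against 358 ± 7.81 CPM per kilobase. The omega-class and theta-class transferase sums were lower in each Suz12 cKO library, at 128 ± 4.21 against 181 ± 4.62 and 9.94 ± 1.62 against 15.7 ± 2.09 CPM per kilobase. The sums of the Mgst, P450, Ugt1, Nqo, Sult and all cytosolic glutathione transferase genes overlapped between genotypes, as did that of all 75 enzymes (1774 ± 89.6 and 1689 ± 92.7 CPM per kilobase). These sums carry no test.

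**Figure D2:**
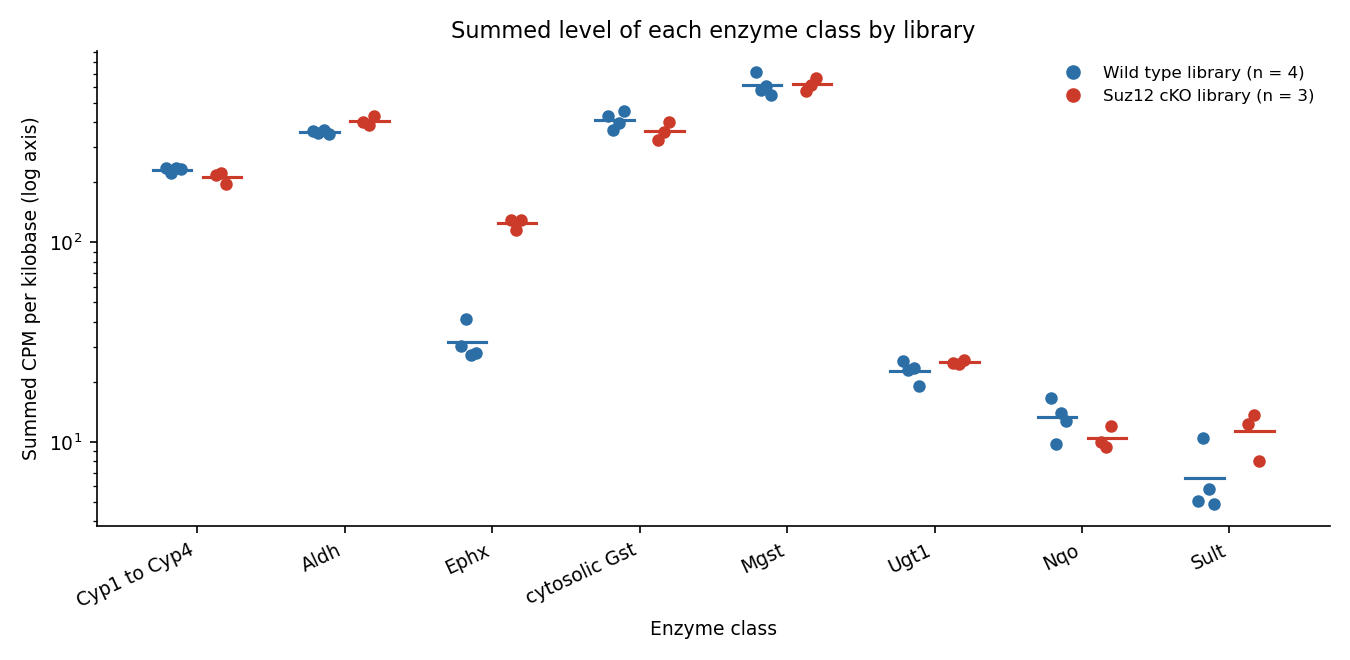
Summed level of each enzyme class in CPM per kilobase (log axis, vertical) by class (horizontal), with 1 point per library: 4 wild type in blue and 3 Suz12 cKO in red. The epoxide hydrolase sum lay between 115 and 130 in Suz12 cKO and between 27.4 and 41.3 in wild type libraries, and the sum of the Mgst class overlapped between genotypes.

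Ephx1, microsomal epoxide hydrolase, converts epoxides from P450 reactions to diols. Its level was 215, 189 and 214 CPM in Suz12 cKO replicates 1 to 3 and 49.6, 68.1, 45.4 and 46.2 CPM in wild type replicates 1 to 4. Each Suz12 cKO library lay well above the highest wild type library, and the difference was 3.93-fold (log2 fold change 1.98, SE 0.15, edgeR adjusted p = 4.5e-04). Per kilobase, Ephx1 moved from rank 13 among the 75 enzymes in wild type to rank 3 in Suz12 cKO. The difference was 1.57 on the log2 scale among the 3 libraries high in tissue RNA (1 of them wild type) and 2.17 among the other 4 (1 of them Suz12 cKO). The gene (Entrez 13849) spans chr1:180989556-181017569. Ephx2, the soluble epoxide hydrolase that acts on fatty acid epoxides, was rare, at 0.884, 2.42 and 2.18 CPM in Suz12 cKO and 0.221 to 1.05 CPM in wild type, and was not called (edgeR adjusted p = 0.283).

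Among the 18 aldehyde dehydrogenases, 17 were tested and 2 were called, both higher (11.8%, against 6.28% of all genes tested). Of all genes tested, 4.02% were called lower. Aldh1a2 makes retinoic acid from retinaldehyde. It stood at 104, 92.9 and 101 CPM in the Suz12 cKO libraries against 12.8, 23.2, 11.6 and 9.71 CPM in wild type. The groups did not overlap, and the lowest Suz12 cKO library was above the highest wild type library, wild type replicate 2. The difference was 6.94-fold (log2 fold change 2.79, SE 0.27, edgeR adjusted p = 8.4e-04), with a log2 value of 2.09 among the libraries high in tissue RNA and 3.14 among the others, each with 1 library in 1 genotype. Per kilobase, Aldh1a2 moved from rank 28 to rank 13 among the enzymes. Fibroblast markers (7 genes, summed) reached 1.93, 4.66 and 0 CPM across the Suz12 cKO libraries against 0, 21.2, 0 and 0.165 CPM across wild type. The gene (Entrez 19378) spans chr9:71215789-71296243.

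Aldh1l1, the cytosolic formyltetrahydrofolate dehydrogenase of folate metabolism, was at 19.1, 17.7 and 13.2 CPM in the Suz12 cKO libraries against 3.10, 5.81, 3.75 and 3.03 CPM in wild type. The groups did not overlap (log2 fold change 2.09, SE 0.27, edgeR adjusted p = 0.0027). Of its 85-base windows, the read length, 7.62% also occur in transcripts of other genes, so reads there may have been split. Aldh5a1, succinic semialdehyde dehydrogenase, was at 7.09, 6.33 and 7.29 CPM in the Suz12 cKO libraries against 1.54, 0, 0.341 and 0.227 CPM in wild type. Although these ranges did not overlap, it missed the threshold (log2 fold change 3.68, SE 1.09, edgeR adjusted p = 0.067).

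The most abundant aldehyde dehydrogenases were not called. Aldh2, which clears acetaldehyde and lipid aldehydes in mitochondria, averaged 259 ± 35.8 CPM in Suz12 cKO and 210 ± 10.6 CPM in wild type, with ranges that did not overlap and an edgeR adjusted p of 0.111. Aldh9a1, an enzyme of carnitine synthesis, averaged 152 ± 10.0 against 187 ± 3.66 CPM (edgeR adjusted p = 0.0568), also without overlap. DESeq2 called both, Aldh2 higher and Aldh9a1 lower. Aldh3b1, which oxidises lipid aldehydes, overlapped between genotypes at 143 ± 1.59 and 152 ± 9.79 CPM. Over the 15 tested aldehyde dehydrogenases that were not called, log2 fold changes ran from -0.43 to 3.68.

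**Figure D3:**
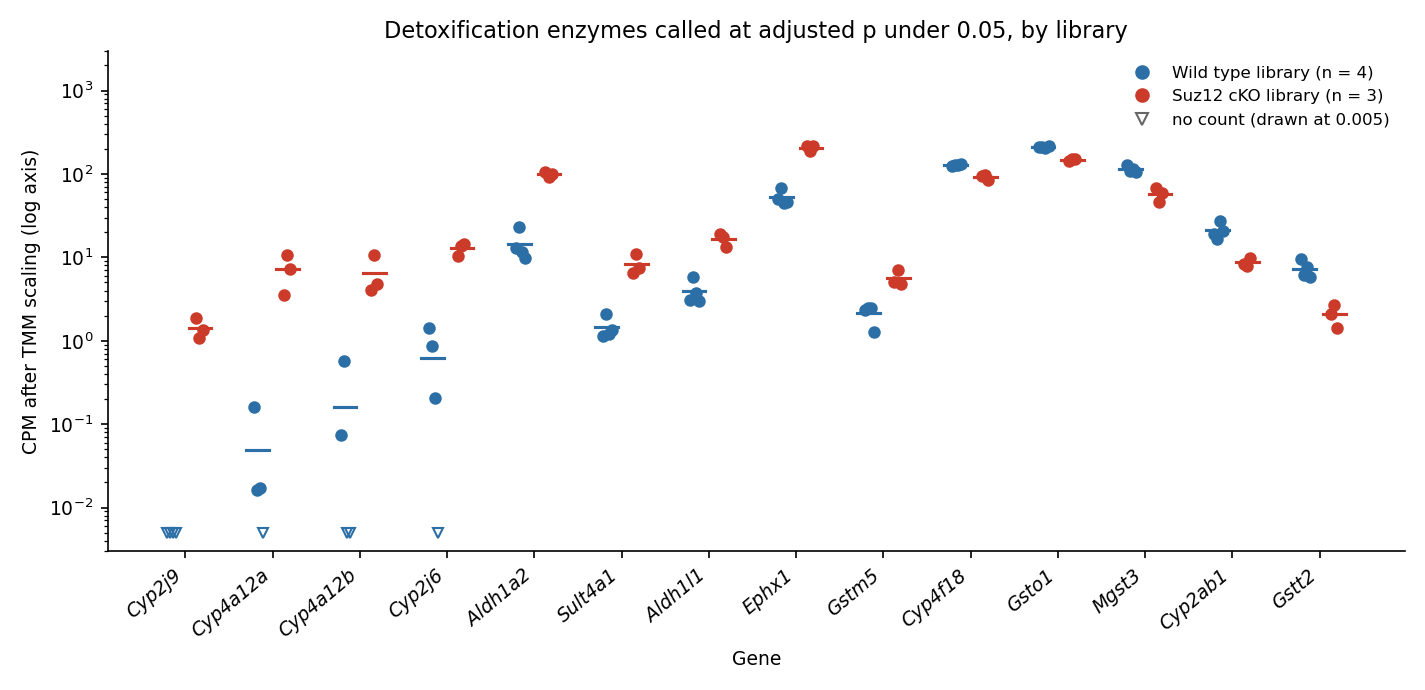
CPM after TMM scaling on a log axis (vertical) for the 14 enzymes called at adjusted p under 0.05 (horizontal, ordered by log2 fold change), with 1 point per library (4 wild type in blue, 3 Suz12 cKO in red), bars at the group means and open triangles for libraries with no count. The genotypes do not overlap for any of the 14, which were chosen by their calls in these same libraries. Of all genes tested, 25.5% did not overlap. Cyp2j9 had no count in the 4 wild type libraries and met the detection rule through its Suz12 cKO libraries alone. Ephx1, Gsto1 and Cyp4f18 were abundant in both genotypes.

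Of 24 P450s, 22 were tested. The edgeR test called 4 higher (18.2%, against 6.28% of all genes tested) and 2 lower (9.09%, against 4.02%). Cyp2j9, Cyp4a12a and Cyp4a12b count among the 4 although they passed the filter only through their Suz12 cKO libraries. The 4 called higher were at or under 1.41 CPM in each wild type library. Cyp4a12a, an enzyme known for making the arachidonic acid product hydroxyeicosatetraenoic acid, was at 3.55, 10.6 and 7.30 CPM in the Suz12 cKO libraries against 0.162, 0.0164, 0.0170 and 0 CPM in wild type (log2 fold change 7.0, SE 0.98, edgeR adjusted p = 0.0035). Its neighbour Cyp4a12b was at 4.09, 10.6 and 4.83 CPM against 0.0747, 0.574, 0 and 0 CPM (log2 fold change 5.30, SE 1.29, edgeR adjusted p = 0.0348). Cyp4a12a and Cyp4a12b passed the filter on low counts only through their Suz12 cKO libraries. Their counts in wild type replicates 1 to 4 were 13, 1, 1 and 0, and 6, 35, 0 and 0. Neither could readily have been called lower, so their p values are no independent support. Both were detected well above wild type in each Suz12 cKO library. They share sequence: 38.8% of the 85-base windows of Cyp4a12a and 39.2% of those of Cyp4a12b occur in the other gene, so their reads cannot be fully assigned and the pair is not 2 independent results. Cyp4a12b lost its call when any Suz12 cKO library, or wild type replicate 1, 3 or 4, was left out. The pair lies on chromosome 4 with Cyp4b1 in the same run, a gene seen in 3 libraries and not called (edgeR adjusted p = 0.937).

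Cyp2j6 and Cyp2j9, of a subfamily that epoxidises arachidonic acid, adjoin each other elsewhere on chromosome 4, within 96516138 to 96592523. Cyp2j6 was at 10.3, 13.6 and 14.6 CPM in the Suz12 cKO libraries against 1.41, 0.870, 0.204 and 0 CPM in wild type (log2 fold change 4.33, SE 0.95, edgeR adjusted p = 0.0227). Cyp2j9 was at 1.86, 1.07 and 1.36 CPM in the Suz12 cKO libraries and had no count in the 4 wild type libraries. Set against a floor of 3 counts over the wild type group, Cyp2j9 was at least 118-fold higher (edgeR adjusted p = 0.0134), which covers counting error only. As it met the detection rule and passed the filter through its Suz12 cKO counts alone, it could only have been higher, and its p is no independent support. Both neighbours were thus seen in each Suz12 cKO library and were low or undetected in wild type, and neither shares an 85-base window with another gene. The Cyp2j6 call was lost without any 1 of the Suz12 cKO libraries or wild type replicate 3, and the Cyp2j9 call without Suz12 cKO replicate 1 or 2. In the 4 low tissue RNA libraries alone neither was called (adjusted p = 0.0861 and 0.0862).

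The P450s called lower were expressed in both genotypes. Cyp4f18, known for omega-oxidation of leukotriene B4, was at 93.7, 96.4 and 84.7 CPM in the Suz12 cKO libraries against 123, 128, 129 and 130 CPM in wild type. It was lower in each Suz12 cKO library by a small margin (log2 fold change -0.48, SE 0.08, edgeR adjusted p = 0.0092), a call lost within the 3 libraries high in tissue RNA (adjusted p = 0.0913). Cyp2ab1 was at 8.40, 7.93 and 9.89 CPM against 19.2, 16.7, 27.6 and 20.8 CPM in wild type (log2 fold change -1.27, SE 0.20, edgeR adjusted p = 0.0061). The abundant Cyp4f16 (136 ± 12.9 and 162 ± 15.3 CPM) and Cyp4v3 (142 ± 11.1 and 132 ± 7.08 CPM), both of the fatty acid hydroxylase family Cyp4, overlapped between genotypes and were not called. The run of 7 Cyp4f genes on chromosome 17, which holds the pseudogene Cyp4f41-ps but not Cyp4f18, had no called gene in edgeR. Cyp4f13 was closest at an edgeR adjusted p of 0.0602 (DESeq2 called Cyp4f13 higher), and 2 of the 7 had an unadjusted edgeR p under 0.05.

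Glutathione transferases join glutathione to electrophiles, and several also act as peroxidases or isomerases. Of the 18 cytosolic genes, 1 was called higher (5.56%, against 6.28% of all genes tested) and 2 lower (11.1%, against 4.02%). Gsto1, the omega-class enzyme that reduces dehydroascorbate and other thiol substrates, was at 142, 150 and 151 CPM in the Suz12 cKO libraries against 208, 211, 206 and 218 CPM in wild type. The values were tight within each genotype and did not overlap (log2 fold change -0.51, SE 0.08, edgeR adjusted p = 0.0050). In the 4 low tissue RNA libraries alone the log2 difference was -0.49, no longer called (adjusted p = 0.0638).

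Gstt2, of the theta class, was at 2.08, 2.70 and 1.44 CPM in the Suz12 cKO libraries against 9.55, 6.14, 7.70 and 5.79 CPM in wild type (log2 fold change -1.81, SE 0.33, edgeR adjusted p = 0.0103). In the 3 high tissue RNA libraries alone its log2 difference was -1.36 and not called (adjusted p = 0.107). Gstt3, in the same run, averaged 14.2 ± 2.45 against 18.9 ± 1.65 CPM and was not called (edgeR adjusted p = 0.159). Gstt1, which lies between Gstt3 and Gstt2, was rare at 0.860 ± 0.564 against 0.279 ± 0.275 CPM. It was not called (log2 fold change 1.61, edgeR adjusted p = 0.543). Gstm5, of the mu class, was at 5.03, 6.96 and 4.84 CPM in the Suz12 cKO libraries against 2.35, 2.48, 2.50 and 1.26 CPM in wild type. Its ranges did not overlap (log2 fold change 1.38, SE 0.35, edgeR adjusted p = 0.0408), but it was called in 3 of the 14 alternative analyses and lost its call when any 1 library other than wild type replicate 2 was left out. It is 1 of a run of 6 Gstm genes on chromosome 3. Gstm1, the most abundant of them, overlapped at 134 ± 32.4 and 130 ± 22.9 CPM, and Gstm4 averaged 14.1 ± 1.98 against 19.8 ± 3.04 CPM without a call (edgeR adjusted p = 0.122).

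The pi-class genes overlapped between genotypes. Gstp1 averaged 36.9 ± 4.31 CPM in Suz12 cKO and 34.6 ± 6.16 CPM in wild type, a log2 difference of 0.10 (SE 0.15, edgeR adjusted p = 0.782). Gstp1 and Gstp2 share 27.5% and 48.9% of their windows, mostly with each other, so the split of reads between them is uncertain. Gsta3, an alpha-class gene, was at 0.252, 0.777 and 5.83 CPM in the Suz12 cKO libraries against 0 to 0.763 CPM in wild type. A single library, Suz12 cKO replicate 3, carried most of its counts, and it was not called (edgeR adjusted p = 0.309).

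The 3 membrane-bound transferases went different ways. Mgst3 was at 67.1, 45.6 and 59.0 CPM in the Suz12 cKO libraries against 129, 107, 113 and 106 CPM in wild type (log2 fold change -0.99, SE 0.14, edgeR adjusted p = 0.0038). Each Suz12 cKO library lay well below the lowest wild type library. Mgst3 lies beside Aldh9a1 on chromosome 1, spanning 167371966 to 167393841. Mgst1 was at 434, 504 and 527 CPM in the Suz12 cKO libraries against 459, 372, 392 and 350 CPM in wild type. These overlapped, and the difference was not called by edgeR (log2 fold change 0.31, SE 0.11, adjusted p = 0.129), though DESeq2 called it higher. Mgst2 averaged 7.89 ± 1.93 and 9.97 ± 2.77 CPM and overlapped.

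Sulfotransferases add sulfate from the donor PAPS. Sult4a1, a member best known from brain, was at 6.55, 11.0 and 7.53 CPM in the Suz12 cKO libraries against 1.15, 2.07, 1.21 and 1.36 CPM in wild type. The groups did not overlap (log2 fold change 2.53, SE 0.34, edgeR adjusted p = 0.0028). Sult2b1, which sulfates cholesterol, was at 8.25, 9.26 and 4.35 CPM in the Suz12 cKO libraries against 2.99, 7.38, 3.37 and 3.24 CPM in wild type (edgeR adjusted p = 0.284). It followed the 3 libraries with more haemoglobin RNA, and without wild type replicate 2 it was called (adjusted p = 0.0420). Sult1a1, a phenol sulfotransferase, and Sult6b1 were below 4 CPM in each library and overlapped.

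The glucuronidating and quinone-reducing enzymes had no call with edgeR or DESeq2. Of all genes tested, edgeR called 10.3% in either direction, so no call among so few genes says little. For the Ugt1 genes 0 of 3 tested had an unadjusted edgeR p under 0.05, and for the Nqo genes 1 of 2 did. Ugt1a7c, which carried most of the locus, averaged 81.1 ± 0.982 CPM in Suz12 cKO and 73.6 ± 8.50 CPM in wild type. The Ugt1a genes share their last exons, and 50.8% to 78.3% of their windows occur in another gene, so the split among Ugt1a7c, Ugt1a6a, Ugt1a6b and Ugt1a1 is uncertain. Nqo1, a quinone reductase widely used as a readout of the transcription factor NRF2, was at 3.80, 2.89 and 4.91 CPM in the Suz12 cKO libraries against 7.06, 2.02, 4.29 and 2.85 CPM in wild type, a log2 difference of -0.07 (SE 0.45, edgeR adjusted p = 0.957). Nqo2 was at 30.5, 30.8 and 36.0 CPM against 48.7, 34.4, 45.1 and 44.3 CPM in wild type and was not called (log2 fold change -0.41, edgeR adjusted p = 0.0949). Its span lies within that of Serpinb6a in the annotation, with 16.6% of its windows shared.

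Some enzymes were ordered by haemoglobin RNA. Aldh1a1, Cyp2b10, Cyp2f2, Cyp2s1, Cyp2t4, Cyp4b1 and Sult2b1 were each lower in all 4 libraries with little haemoglobin RNA than in any of the 3 with more. Of the 71 tested enzymes 6 showed this order, against 8.6% of all genes tested, so the share is near the background. The order itself makes the genotypes overlap. Cyp2f2, a P450 typical of club cells, was at 3.05, 3.18 and 0.336 CPM in the Suz12 cKO libraries against 0.461, 6.83, 0.375 and 0 CPM in wild type. Aldh1a1, a retinaldehyde dehydrogenase also found in club cells, was at 2.60, 2.04 and 0 CPM in the Suz12 cKO libraries against 0.324, 2.22, 0.119 and 0 CPM in wild type. Scgb1a1, the main secretory gene of club cells, was at 12.1, 37.0 and 0.476 CPM in the Suz12 cKO libraries against 1.06, 46.8, 0.954 and 2.33 CPM in wild type. Of the 8 club cell markers 5 followed this order, Aldh1a1 and Cyp2f2 among them. Hp, the 1 called, was instead at 28.0 CPM in Suz12 cKO replicate 3 and at 4.31 and 10.2 CPM in replicates 1 and 2. Bpifa1 was at 4.97 CPM in wild type replicate 4, above Suz12 cKO replicates 1 and 2 (2.76 and 3.53 CPM). The 7 enzymes were thus high in the same libraries as Scgb1a1 but not as each club cell marker. The part of other cells in these levels was not tested.

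**Figure D4:**
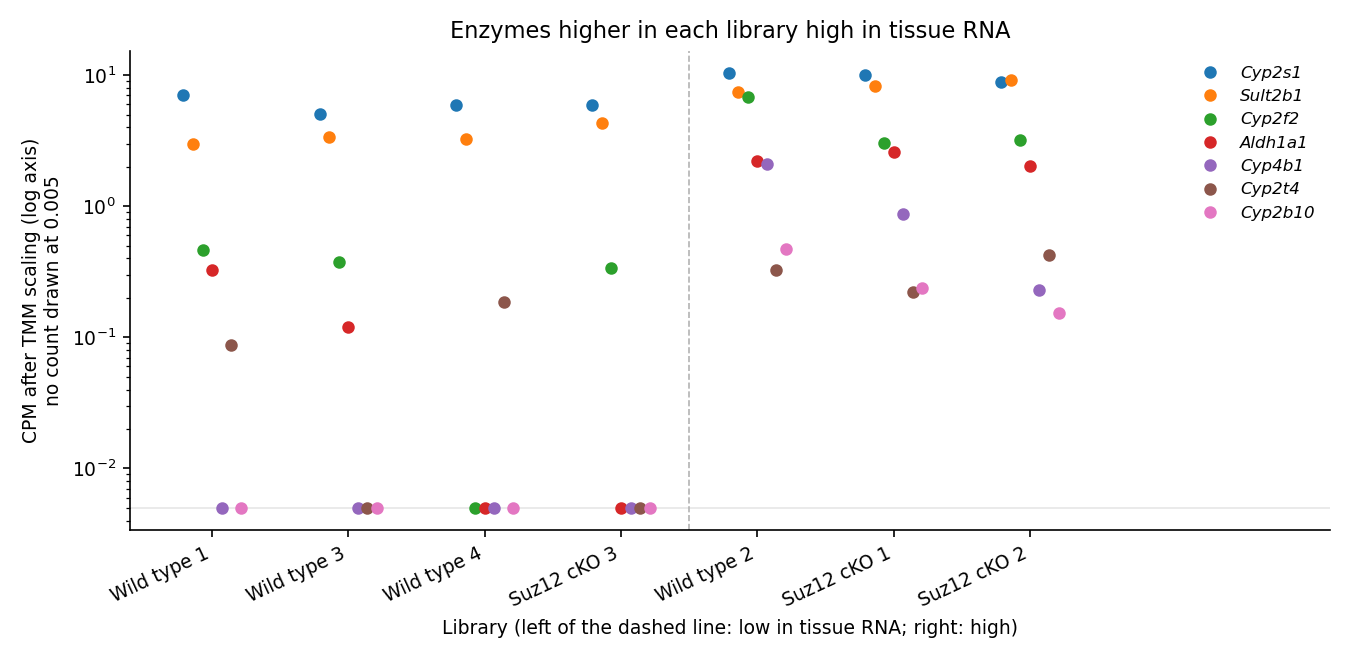
CPM after TMM scaling on a log axis (vertical) for the 7 enzymes whose values in the 3 libraries high in tissue RNA (right of the dashed line) all exceeded those in the other 4 (left), by library (horizontal), with libraries at no count drawn at 0.005. Suz12 cKO replicates 1 and 2 sit with wild type replicate 2, and Suz12 cKO replicate 3 sits with the other wild type libraries.

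Marker sums of type 2 epithelial, neutrophil and ciliated cells did not overlap between genotypes, and the other sums did. The 8 club cell markers, of which Aldh1a1 and Cyp2f2 are themselves members, summed to 26.7 to 62.5 CPM in Suz12 cKO and 7.14 to 78.5 CPM in wild type, with 1 of 7 tested called (higher). The 7 type 2 epithelial markers summed to 138 to 163 against 73.3 to 111 CPM (1 of 7 called, higher), of which Napsa alone was 138 to 144 against 72.4 to 92.2 CPM, and Sftpc, Sftpb, Sftpa1, Sftpd and Slc34a2 were at 0 in Suz12 cKO replicate 3. The 6 type 1 markers summed to 131 to 197 against 61.1 to 154 CPM (0 of 6 called by edgeR or DESeq2, 1 at an unadjusted edgeR p under 0.05). The 6 neutrophil markers summed to 50.8 to 87.2 against 8.35 to 21.7 CPM (2 of 3 tested called, higher, with Ly6g and Camp at 0 in all libraries). Of these, S100a8 was 46.6 to 76.6 against 8.33 to 20.3 CPM. The other called marker, Retnlg, had 67, 127 and 16 counts in Suz12 cKO and 0, 2, 0 and 1 in wild type replicates 1 to 4. Retnlg passed the filter only through its Suz12 cKO libraries and could hardly have been called lower. The 5 ciliated cell markers summed to 133 to 166 against 229 to 323 CPM (1 of 2 tested called, lower, with Dynlrb2 and Tmem212 at 0), of which Tppp3 alone was 132 to 165 against 229 to 323 CPM, while Foxj1 stayed under 1 CPM and overlapped. Fibroblast markers (0 to 4.66 against 0 to 21.2 CPM, Tcf21 at 0), endothelial markers (77.6 to 112 against 98.2 to 106 CPM) and lymphocyte markers (0.504 to 9.64 against 0.536 to 4.15 CPM) overlapped, and for these lists 0 genes were called by edgeR or DESeq2 and 0 had an unadjusted edgeR p under 0.05. Most of the endothelial sum was Vwf, at 73.4 to 111 against 85.5 to 106 CPM. Most of the type 1 sum was Pdpn, at 111 to 178 against 38.0 to 125 CPM. Of the alveolar macrophage markers, 6 of 15 were called higher. The part of these cells in the enzyme calls was not tested.

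The pathway around the enzymes was read from 110 listed genes outside the symbol rule, of which 88 were tested. The edgeR test called 9 of the 88 higher (10.2%, against 6.28% of all genes tested) and 3 lower (3.41%, against 4.02%), with a median log2 fold change of 0.03. Among 14 listed regulators, Nfe2l2, which encodes NRF2, was at 334, 274 and 177 CPM in the Suz12 cKO libraries against 200, 416, 222 and 214 CPM in wild type (log2 fold change -0.01, SE 0.29, edgeR adjusted p = 0.992). Keap1, the NRF2 inhibitor, overlapped at 48.3 ± 5.50 and 52.2 ± 3.45 CPM (edgeR adjusted p = 0.602). Ahr, the dioxin receptor, was at 9.83, 12.2 and 10.9 CPM in the Suz12 cKO libraries against 2.22, 14.7, 5.26 and 2.56 CPM in wild type. It was not called with all 7 libraries (edgeR adjusted p = 0.456) and was called higher without wild type replicate 2 (log2 fold change 1.72, adjusted p = 0.0121). Hif1a, a partner of the same dimerisation subunit Arnt, was called higher, at 305 ± 18.1 against 166 ± 18.1 CPM (log2 fold change 0.88, SE 0.10, edgeR adjusted p = 0.0019).

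Glutathione supply showed no call: 0 of 11 tested genes passed with edgeR or with DESeq2, and 0 had an unadjusted edgeR p under 0.05. Of all genes tested, edgeR called 10.3% in either direction. Gclc and Gclm, the subunits of the enzyme that starts glutathione synthesis, averaged 46.7 ± 12.1 against 48.3 ± 5.18 CPM and 55.8 ± 15.9 against 56.6 ± 6.65 CPM. Of 11 antioxidant targets of NRF2, the pentose phosphate enzyme Taldo1 was called and fell by 0.28 on the log2 scale (edgeR adjusted p = 0.0449), a call lost when any library other than wild type replicate 2 was left out. Hmox1, which degrades haem, was at 195, 258 and 689 CPM in the Suz12 cKO libraries against 313, 135, 241 and 282 CPM in wild type. Its ranges overlapped and it was not called with all libraries (edgeR adjusted p = 0.411). Suz12 cKO replicate 3 alone lay above the wild type range. Without that library the log2 difference was -0.10, and with a term for tissue RNA it was 1.05 and called (edgeR adjusted p = 0.00318). It was also called among the 3 libraries high in tissue RNA (0.75, adjusted p = 0.0321) and among the other 4 (1.30, adjusted p = 0.0050), where replicate 3 is the 1 Suz12 cKO library.

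The electron donors of the P450s split. Por, the reductase that feeds microsomal P450s, was called higher at 128 ± 11.8 against 93.3 ± 7.95 CPM (log2 fold change 0.46, SE 0.10, edgeR adjusted p = 0.0255), a call lost without Suz12 cKO replicate 1 or 2 or wild type replicate 3. Cyb5r3, the cytochrome b5 reductase, was called lower at 235 ± 11.1 against 320 ± 12.8 CPM (log2 fold change -0.45, SE 0.08, edgeR adjusted p = 0.0107), a call lost without Suz12 cKO replicate 2. Among other oxidising and reducing enzymes, the monoamine oxidase Maoa was called higher (49.2 ± 7.99 against 19.0 ± 2.41 CPM, log2 fold change 1.37, edgeR adjusted p = 0.0013), as was the aldo-keto reductase Akr1c12 (17.0 ± 1.70 against 8.63 ± 0.463 CPM, log2 fold change 0.98, edgeR adjusted p = 0.0055).

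Conjugation and export partners included 4 genes called higher and 1 called lower. Papss2 makes PAPS, the sulfate donor used by the sulfotransferases. It was at 11.5, 9.75 and 11.5 CPM in the Suz12 cKO libraries against 0.971, 2.07, 1.35 and 0.701 CPM in wild type, without overlap (log2 fold change 3.10, SE 0.37, edgeR adjusted p = 0.0019). Hpgds, a sigma-class glutathione transferase that makes prostaglandin D2, was called higher by 0.62 (edgeR adjusted p = 0.0376), which was lost without any 1 of the Suz12 cKO libraries or wild type replicate 3 or 4. The conjugate pump Abcc3 was at 22.4, 29.6 and 44.2 CPM in the Suz12 cKO libraries against 5.65, 6.35, 4.92 and 3.48 CPM in wild type (log2 fold change 2.65, SE 0.28, edgeR adjusted p = 0.0011). Abcg2, a pump of drugs and sulfate conjugates, was at 52.7, 50.1 and 59.6 CPM against 27.3, 24.7, 21.6 and 16.8 CPM (log2 fold change 1.26, SE 0.16, edgeR adjusted p = 0.0026). Both pumps were thus higher in each Suz12 cKO library, while the organic anion pump Abcc5 fell by 0.45 on the log2 scale (edgeR adjusted p = 0.0131), a call lost without Suz12 cKO replicate 1 or 2. Abcc5, Akr1c12, Cyb5r3, Hpgds, Por and Taldo1 were not called within either tissue RNA subset.

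Among the retinoid partners of Aldh1a2, Cyp26b1, which degrades retinoic acid, was at 3.01, 1.36 and 5.49 CPM in the Suz12 cKO libraries against 0.174, 0.722, 0.375 and 0.144 CPM in wild type. The ranges did not overlap (log2 fold change 3.21, SE 0.78, edgeR adjusted p = 0.0342), and the call was lost without any 1 of Suz12 cKO replicates 1 and 3 or wild type replicates 1, 3 and 4, and within the 3 high tissue RNA libraries (adjusted p = 0.323). It was the 1 gene called of 9 tested in this group.

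**Figure D5:**
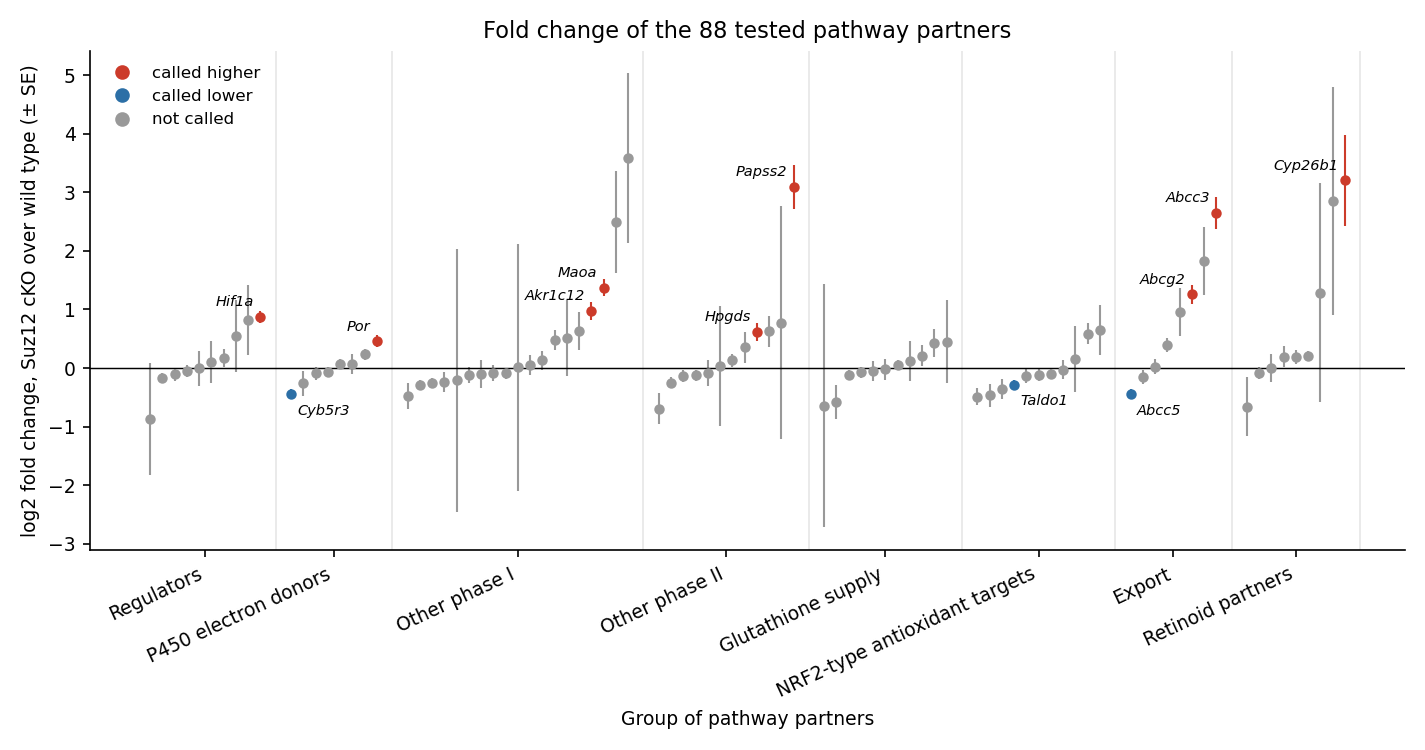
Log2 fold change of Suz12 cKO over wild type with its SE (vertical axis) for the 88 tested pathway partners by group (horizontal axis), with called genes named and coloured (red higher, blue lower) and the rest in grey. Papss2, Abcc3 and Cyp26b1 lay above 2, whereas glutathione supply genes lay on both sides of 0 without a call.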

How the data were processed

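The authors deposited raw read counts for each gene and library, made with featureCounts on mm10, per the submitters' processing notes. The aligner, gene annotation, strand setting and handling of reads that match several genes are not stated in the sources used here. The deposited gene lengths gave levels per kilobase. Symbols came from RefSeq on GRCm38.p6 by Entrez number (25275 of 27179 genes matched; unmatched genes held 0.829% of counts). Library totals of 48104653 to 79281431 exceed the 14 to 20 M single-end reads of 85 bases that the design text states. Precision from counting is high for abundant enzymes and low for those near 0, and without molecular identifiers floors cover counting error only.

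Genes were filtered with filterByExpr (minimum count 10, minimum total 15; 14436 kept), scaled by TMM and tested with edgeR 4.0.16 in R 4.3.3 (quasi-likelihood test, genotype as the sole term, Benjamini-Hochberg adjustment over all tested genes, threshold 0.05). The SE is the size of the log2 fold change divided by the square root of F. Samples were grouped by the genotype label. The replicate numbers were not used to pair the samples. Correlations of same-numbered deviations from the group means were -0.04, 0.24 and 0.16. For Suz12 cKO replicates 2 and 3, but not 1, the same-numbered wild type library gave the highest correlation. With so few libraries these values cannot tell whether the samples were paired.

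Named were Suz12, Ephx1, each called enzyme, the 3 most abundant per class by length, each enzyme of classes under 5, each called partner and 7 fixed partners (Nfe2l2, Keap1, Ahr, Por, Gclc, Gclm and Hmox1). Others named individually, such as Aldh5a1, Gsta3, Gstt3, Gstm4, Cyp4f13 and the enzymes that followed tissue RNA, were chosen after their values were seen. The members, partner list and marker lists (alveolar macrophage, club, type 2, type 1, ciliated, fibroblast, endothelial, neutrophil, and B and T cell) were chosen with earlier results of these data known. Shared 85-base windows were counted in GENCODE M21 transcripts (73 members matched), and promoters came from RefSeq (58 members matched). Alternatives were DESeq2 1.42.0, its size factors in edgeR, no low-count filter (18034 genes), each library left out, a replicate block, a tissue RNA term, and only the libraries with haemoglobin above or below 20 CPM. Of the listed partners, Opla matched no gene of the table. The result of 1 further marker list is not reported here.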

Additional observations from a re-analysis of the deposited data

Results flagged for a closer look

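In 7 of 51 named genes 1 of the 4 wild type libraries stood apart from the other 3 by more than Dixon's 95% critical value for 4 samples; chance alone does this in about 1 in 20 groups. Wild type replicate 2 stood high for Nfe2l2 at 416 CPM (200 to 222 CPM in the others), for Sult2b1 at 7.38 CPM (2.99 to 3.37), for Aldh9a1 at 192 CPM (184 to 185) and for Cyp4a12b at 0.574 CPM (0 to 0.0747). This library was also the 1 wild type library high in tissue RNA. Wild type replicate 4 stood low for Gstm5 at 1.26 CPM (2.35 to 2.50) and for Gclc at 40.6 CPM (50.1 to 51.7). Wild type replicate 1 stood high for Cyp4a12a at 0.162 CPM (0 to 0.0170), still far below the lowest Suz12 cKO value of 3.55 CPM.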

How the results depend on the processing

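Over 14 alternatives, 714 values of 51 named genes were recomputed, and no called gene changed direction. Of 378 values of the 27 called genes, 303 kept their call and 75 missed the threshold. Of 336 values of genes not called, 298 stayed so with the same direction, 28 changed in sign without a call, and 10 passed the threshold. The count of enzymes called higher, 9 with all libraries, ran from 5 (without Suz12 cKO replicate 1 or 2, which lost Cyp2j6, Cyp2j9, Cyp4a12b and Gstm5) to 12 (without wild type replicate 2, which added Aldh5a1, Cyp2a5 and Sult2b1). DESeq2 gave 13. The count called lower, 5, ran from 5 to 7 with 1 library left out and was 3 within the libraries high in tissue RNA, where 1 wild type library was assumed to vary like the others.

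For all genes, 906 called higher became 1393 with DESeq2, 585 with the replicate block, 572 in the low tissue RNA libraries alone, and 456 (without Suz12 cKO replicate 2) to 1510 (without wild type replicate 2) with 1 library left out. The 580 called lower became 278 with the replicate block, 369 within the libraries high and 339 within those low in tissue RNA, and 281 (without Suz12 cKO replicate 2) to 823 (without wild type replicate 2) with 1 left out. Of the partners, 9 called higher became 14 with DESeq2 and 6 to 16 with 1 library left out (16 without wild type replicate 2). The 3 called lower became 5 with DESeq2 and 0 to 5 with 1 left out (0 without Suz12 cKO replicate 2, where 6 had an unadjusted edgeR p under 0.05). They became 0 with the replicate block (9 unadjusted) and 0 in the low tissue RNA libraries (5 unadjusted). With the replicate block, 7 enzymes were called higher (Cyp2j9 and Gstm5 lost) and 4 lower (Cyp4f18 lost), and the partners Cyp26b1, Hpgds and Por lost their calls. Left-out and subset fits had fewer samples; for the other settings the cause was not tested. Enzymes near 0 counts in wild type have fold changes that depend on few counts, and small differences in them were not detectable at this depth.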

Other observations

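Suz12 cKO replicate 3 differed from the other 2 Suz12 cKO libraries in several redox and detoxification transcripts, which are given as values without a test. It was also the 1 Suz12 cKO library low in tissue RNA (haemoglobin 2.58 CPM, against 192 and 155 CPM). Replicate and haemoglobin level therefore cannot be told apart. Hmox1 was at 689 CPM there and at 195 and 258 CPM in replicates 1 and 2, Gclm at 74.0 against 45.0 and 48.3 CPM, and Gclc at 60.6 against 41.5 and 38.0 CPM. Among the rarer enzymes, Gsta3 was at 5.83 against 0.252 and 0.777 CPM, Cyp2a5 at 2.31 against 0.237 and 0.472 CPM, Cyp2u1 at 2.50 against 0.884 and 0.655 CPM, and the aldehyde oxidase Aox1 at 6.49 against 0.884 and 2.44 CPM. Nfe2l2 was lowest in the same library, at 177 CPM against 334 and 274 CPM. These genes were chosen after their values were seen. Wild type replicate 2, the 1 wild type library high in tissue RNA, was the lowest wild type library for Hmox1, Gclm and Gsta3. It was the highest for Nfe2l2, and was not the lowest for Gclc, Cyp2a5, Cyp2u1 or Aox1.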
